A study of Arabidopsis thaliana with 9 samples.

Results

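The expansin superfamily was followed by its transcripts in root tips of Arabidopsis thaliana. Expansins are secreted proteins that loosen the contacts between cellulose and other wall polysaccharides, and so let a growing wall yield, without cutting the chains. They act best in an acid wall, and therefore work together with the plasma membrane proton pumps that acidify it. By sequence the family is divided into alpha-expansins (EXPA), beta-expansins (EXPB) and expansin-like proteins (EXLA and EXLB), and no loosening activity is established for the last group. In roots the family is best known for EXPA7 and EXPA18, which are transcribed in root hair cells.

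The members were chosen by locus, as 30 of the 33602 loci in the count files. They are 21 alpha-expansins, 5 beta-expansins and 4 expansin-like genes. Of the 30, 25 had at least 20 counts over the 9 libraries, namely 19 alpha-expansins, 2 beta-expansins and all 4 expansin-like genes. EXPA19, which is annotated as a transcribed pseudogene, EXPA22 and EXPB4 had 0 counts in every library, EXPB5 had 1 count in all and EXPB2 had 4. A count of 0 in a library allows up to 3 counts, which is 0.0767 to 0.147 in units of CPM (counts per library scaled to a common size of 1000000), counting error only.

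The 9 libraries held tips of 2 to 3 mm cut 5 days after germination, with 1 library for each of 9 groups, all in the Col-0 background and on medium with sucrose. The stop1 line is a mutant of a zinc-finger transcription factor, and the almt1 line is a mutant of a malate channel whose transcription depends on STOP1. The labels name no alleles and do not say how many plants were pooled. Each mutant was grown at 5 µM phosphate with 1 mM L-malate (malate), at 5 µM phosphate (low phosphate) and at 1 mM phosphate (high phosphate). The title and the characteristics of the stop1 library with malate disagree on its phosphate, and the characteristics were used. Wild type was grown at 5 µM phosphate without added iron, its traces bound by 100 µM of the chelator ferrozine (low iron), at low phosphate and at high phosphate. The series title calls the mutants insensitive to low phosphate, and the comparisons ask which transcripts respond to phosphate, malate and iron in each line.

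Gene counts were 20619740 to 37189056 per library, and 0.0771% to 0.0955% of them fell on expansins. Of the reads recorded for wild type at low phosphate, 44.9% aligned at several places, against 4.19% to 14.3% in the other 8 libraries. That 1 library enters every comparison that names wild type at low phosphate, so those comparisons share it, and its part in them was not tested. In the low-iron library and the 2 malate libraries, reads that overlapped several genes made up 2.55% to 2.65%, against 0.956% to 1.69% in the remaining 6 libraries, and there treatment and library set cannot be told apart. ALMT1 had 0 to 2 counts in the 3 stop1 libraries, against 1636 to 2750 counts in wild type. STOP1 transcripts (105 to 174 CPM) were present in stop1 and ALMT1 transcripts (15.2 to 97.5 CPM) in almt1, so these levels do not check the genotypes of those lines. The 13 listed root hair genes summed to 1107, 921 and 587 CPM in stop1 with malate, at low and at high phosphate, to 1341, 994 and 767 CPM in almt1 likewise, and to 1872, 1300 and 567 CPM in wild type at low iron, low and high phosphate. The 14 endodermis and xylem genes summed in the same orders to 389, 964 and 1119 CPM in stop1, to 620, 775 and 888 CPM in almt1, and to 978, 498 and 928 CPM in wild type. The 8 genes of dividing cells summed to 204 CPM in wild type at low phosphate and to 244 to 258 CPM elsewhere. The 4 root cap genes summed to 50 to 73.7 CPM, and the 5 shoot photosynthesis genes to 7.11 CPM in low-iron wild type and up to 67.1 CPM in wild type at high phosphate. Every gene of these 5 lists had counts in every library. In such bulk tips fewer cells of a type and less RNA per cell cannot be told apart, and the part of cell makeup in the results below was not tested.

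The bases upstream of 3 members are shown because EXPA7 and EXPA18 are the root hair expansins and EXPA12 had the largest rise at low phosphate in wild type among the members that passed. Each line is the 250 bases before the annotated start of the gene in TAIR10.1 (RefSeq), read 5′ to 3′ on the strand of the gene, with capitals for a match to the root hair element, a motif known from root hair genes. The windows lie on the plus strand at chr1:4276255-4276504 for EXPA7, chr1:23331313-23331562 for EXPA18 and chr3:5190304-5190553 for EXPA12.
EXPA7: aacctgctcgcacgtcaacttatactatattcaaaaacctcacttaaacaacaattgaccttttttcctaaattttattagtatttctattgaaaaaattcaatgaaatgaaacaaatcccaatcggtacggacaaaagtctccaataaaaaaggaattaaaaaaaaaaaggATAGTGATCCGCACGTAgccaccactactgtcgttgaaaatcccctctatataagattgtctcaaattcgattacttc
EXPA18: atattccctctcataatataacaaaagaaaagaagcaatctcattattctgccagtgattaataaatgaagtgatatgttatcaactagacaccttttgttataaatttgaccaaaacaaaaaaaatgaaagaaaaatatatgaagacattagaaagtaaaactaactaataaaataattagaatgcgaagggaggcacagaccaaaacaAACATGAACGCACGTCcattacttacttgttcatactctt
EXPA12: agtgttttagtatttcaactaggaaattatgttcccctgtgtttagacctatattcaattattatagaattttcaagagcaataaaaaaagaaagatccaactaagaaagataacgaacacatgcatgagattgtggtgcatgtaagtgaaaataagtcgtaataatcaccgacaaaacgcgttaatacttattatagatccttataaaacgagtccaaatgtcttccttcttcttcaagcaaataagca
On both strands of the windows of 29 protein-coding members, the element was found in 2, EXPA7 and EXPA18, and it was found in 0.754% of 27443 such windows over protein-coding genes. Because the motif is known from root hair genes and both of these are such genes, the matches describe the sequences and test nothing. The EXPA7 match spans 17 bases, from 78 to 62 bases before the start, and the EXPA18 match spans 16 bases, from 40 to 25 bases before it. The EXPA18 window also overlaps the neighbouring locus AT1G62978. The EXPA12 window held no match.

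EXPA18, EXPA7 and EXPA9 had the most transcript per length, with medians over the 9 libraries of 123, 115 and 110.5 CPM per kilobase of exon. EXPA11 followed at 38.2 CPM per kilobase and EXLA1 at 32.0 CPM per kilobase. The first 3 together made up 54% of the summed expansin CPM in low-iron wild type, the highest share, and 43.1% in wild type at low phosphate, the lowest. The levels given below are CPM of 1 gene, scaled by the trimmed mean of M-values (TMM) and not divided by length. Changes are log2 fold changes from edgeR quasi-likelihood fits over all genes, with adjusted p-values by the Benjamini-Hochberg method and a threshold of 0.05. Except in the fit with genotype as a block, stop1 and almt1 stand in as 2 samples of a mutant class. There each lone wild-type library is assumed to vary as the mutants do, so a p-value measures only the spread between these samples. In all of these but the comparisons of mutants against wild type, a constant difference between stop1 and almt1 is first taken out. In the block fit a p-value measures how the phosphate response varies over 3 genotypes.

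**Figure D1:**
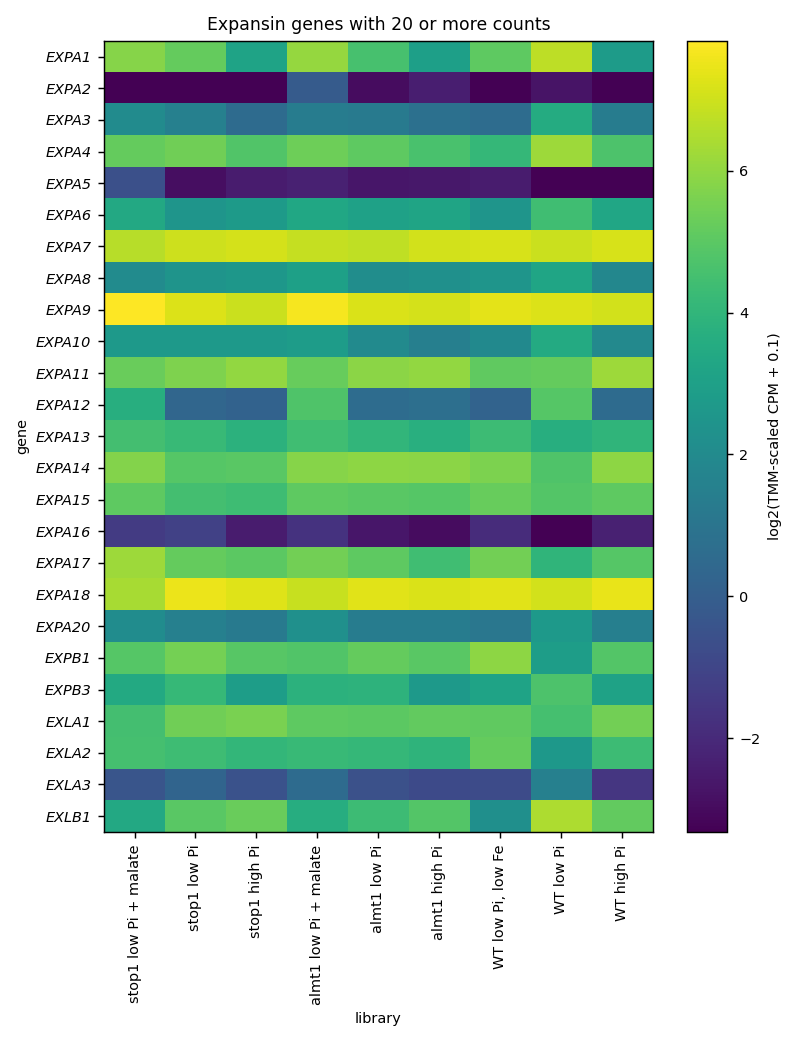
Level of the 25 expansin genes with at least 20 counts (rows) in the 9 libraries (columns), as log2 of TMM-scaled CPM plus 0.1, brighter for higher. EXPA7, EXPA9 and EXPA18 are bright throughout, while EXPA12 is bright in both malate libraries and in wild type at low phosphate.

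The summed level of the family varied less than that of most members named below. All expansins together gave 865, 878 and 783 CPM in stop1 with malate, at low and at high phosphate, 905, 819.7 and 779 CPM in almt1 likewise, and 871, 952 and 859 CPM in wild type at low iron, low and high phosphate. The beta-expansins summed to 69.9 CPM in low-iron wild type, the highest of the 9 values, and to 33.6 CPM in wild type at low phosphate, the lowest. The expansin-like genes summed to 57.2 CPM in stop1 with malate, the lowest value, and 120 CPM in wild type at low phosphate, the highest.

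**Figure D2:**
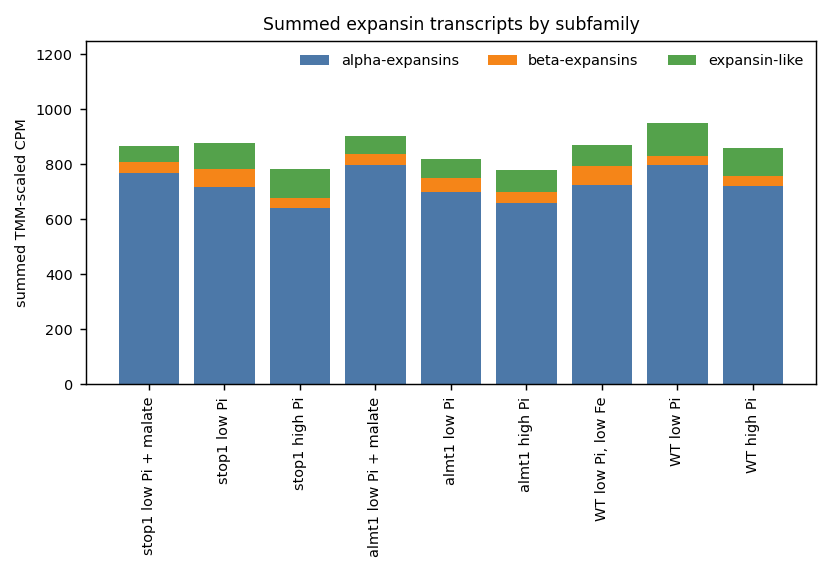
Summed TMM-scaled CPM of the alpha-expansins, beta-expansins and expansin-like genes in each library (stacked bars, 1 library a group). The totals lie between 779 CPM in almt1 at high phosphate and 952 CPM in wild type at low phosphate.

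The root hair expansins EXPA7 and EXPA18 had the highest median levels per length and passed in no main fit of low against high phosphate. In an alternative fit without the malate and low-iron libraries, EXPA18 passed as lower at low phosphate in wild type, and EXPA7 did not pass. EXPA7 (AT1G12560) stood at 99.6 CPM (malate), 128 CPM (low phosphate) and 139 CPM (high phosphate) in stop1, at 116, 109.7 and 134 CPM in almt1 in that order, and at 142 CPM (low iron), 123 CPM (low phosphate) and 141 CPM (high phosphate) in wild type. Its lowest library was stop1 with malate and its highest low-iron wild type. EXPA7 passed in none of the 8 fits and was 2-fold apart in none of the 10 pairs of libraries compared. EXPA18 (AT1G62980) measured 83.1, 179.5 and 154 CPM in stop1 with malate, at low and at high phosphate, 118, 159 and 147 CPM in almt1 likewise, and 161, 135 and 176 CPM in wild type at low iron, low and high phosphate. Both malate libraries lay below the other 7. EXPA18 fell with malate, by 0.76 on the log2 scale (SE 0.18, adjusted p = 0.0255), and was lower in 2 of 2 mutants. At low against high phosphate in wild type the fold change was −0.19 (SE 0.19) for EXPA7 and −0.38 (SE 0.26) for EXPA18, and neither passed. In the same comparison 6 of 13 listed root hair genes rose and 0 fell, with a list median of 0.668 against 0.0713 for all genes tested. Among these 6 were the extensin-like LRX1 at 3.00 (SE 0.30), LRX2 at 2.46 (SE 0.23) and the proline-rich wall protein PRP3 at 1.90 (SE 0.23). EXPA7 overlaps AT1G12570 and EXPA18 overlaps AT1G62978, and the libraries keep no strand, so reads in the overlaps are uncertain. The same holds for EXPA2, EXPA20 and EXLA1, each of which overlaps 1 neighbour.

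At low against high phosphate in wild type, 9 of 25 tested members rose and 4 fell, led upward by EXPA12 and EXPA1. Of all genes tested, 21.8% passed (12% higher and 9.79% lower). The median fold change was 0.198 over the members and 0.0713 over all genes. All 25 members with 20 counts were tested. However, EXPA2, EXPA5 and EXPA16 had 36 to 43 counts, and each passed the filter on low values through the 1 library where it was highest. Because members that pass a filter had to be present somewhere, the counts and medians over members are descriptions.

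The 6 alpha-expansins that rose in wild type included EXPA1, which is studied in guard cells and at the root transition zone. EXPA12 (AT3G15370) had 12.5 CPM with malate, 1.19 CPM at low and 1.03 CPM at high phosphate in stop1, 26.8, 1.42 and 1.59 CPM in almt1 in the same order, and 1.07 CPM at low iron, 29.2 CPM at low and 1.39 CPM at high phosphate in wild type. It was near 1 CPM in 6 libraries and above 12 CPM in the other 3, which were wild type at low phosphate and both malate libraries. At low against high phosphate its fold change in the mutants was 0.01 (SE 0.28) and did not pass, while EXPA12 rose in wild type by 4.39 (SE 0.34, adjusted p = 0.00387). EXPA1 (AT1G69530) stood at 56.7 CPM (malate), 36.7 CPM (low phosphate) and 8.86 CPM (high phosphate) in stop1, at 66.2, 24.2 and 7.84 CPM in almt1 in that order, and at 33.9 CPM (low iron), 104 CPM (low phosphate) and 6.8 CPM (high phosphate) in wild type. Every low-phosphate library, with or without malate or iron, was above all 3 high-phosphate libraries. EXPA1 rose in wild type by 3.94 (SE 0.32, adjusted p = 0.00442).

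EXPA4 (AT2G39700) measured 36.8, 42 and 27.9 CPM in stop1 with malate, at low and at high phosphate, 41.3, 33 and 24.9 CPM in almt1 likewise, and 17.2, 74.1 and 26.5 CPM in wild type at low iron, low and high phosphate. Wild type at low phosphate was highest and low-iron wild type lowest, and EXPA4 rose in wild type by 1.48 (SE 0.21, adjusted p = 0.0112). EXPA3 (AT2G37640) had 4.01 CPM with malate, 2.8 CPM at low and 1.38 CPM at high phosphate in stop1, 2.46, 2.29 and 1.62 CPM in almt1 in the same order, and 1.45 CPM at low iron, 11.6 CPM at low and 2.51 CPM at high phosphate in wild type. Wild type at low phosphate again stood above the other 8, and EXPA3 rose by 2.20 (SE 0.37, adjusted p = 0.0153). EXPA6 (AT2G28950) stood at 10.5 CPM (malate), 5.52 CPM (low phosphate) and 6.56 CPM (high phosphate) in stop1, at 9.96, 8.17 and 9.05 CPM in almt1 in that order, and at 5.6 CPM (low iron), 21.3 CPM (low phosphate) and 9.52 CPM (high phosphate) in wild type. EXPA6 rose in wild type by 1.16 (SE 0.27, adjusted p = 0.0325), and its mutant libraries lay on both sides of wild type at high phosphate. EXPA20 (AT4G38210) measured 4.22, 2.83 and 2.29 CPM in stop1 with malate, at low and at high phosphate, 4.74, 2.44 and 2.46 CPM in almt1 likewise, and 2.02, 6.23 and 2.68 CPM in wild type at low iron, low and high phosphate. EXPA20 rose in wild type by 1.21 (SE 0.29, adjusted p = 0.0357), and wild type at low phosphate was the highest library.

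In wild type the beta-expansins EXPB3 and EXPB1 moved in opposite directions. EXPB3 (AT4G28250) had 11 CPM with malate, 17.5 CPM at low and 7.36 CPM at high phosphate in stop1, 14.1, 14.8 and 6.38 CPM in almt1 in the same order, and 8.69 CPM at low iron, 26 CPM at low and 8.57 CPM at high phosphate in wild type. Within each line the low-phosphate library was the highest. EXPB3 rose in wild type by 1.60 (SE 0.27, adjusted p = 0.0153). EXPB1 (AT2G20750) stood at 29.3 CPM (malate), 45.7 CPM (low phosphate) and 30.2 CPM (high phosphate) in stop1, at 28.1, 36.9 and 31.5 CPM in almt1 in that order, and at 61.2 CPM (low iron), 7.4 CPM (low phosphate) and 28.9 CPM (high phosphate) in wild type. Wild type at low phosphate was lowest of all 9 and low-iron wild type highest. EXPB1 fell in wild type by 1.97 on the log2 scale (SE 0.20, adjusted p = 0.0056).

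Of the expansin-like genes, 2 rose and 1 fell in wild type. The fourth, EXLA1 (AT3G45970), was between 22.9 CPM in stop1 with malate and 48.2 CPM in stop1 at high phosphate. EXLA1 passed in none of the 8 main fits, but it passed as lower in wild type in the fit without the malate and low-iron libraries. EXLB1 (AT4G17030) measured 10.4, 31.3 and 39.4 CPM in stop1 with malate, at low and at high phosphate, 12.4, 19.8 and 28.6 CPM in almt1 likewise, and 4.59, 88 and 35.6 CPM in wild type at low iron, low and high phosphate. Wild type at low phosphate was highest and low-iron wild type lowest. EXLB1 rose in wild type by 1.31 (SE 0.32, adjusted p = 0.0406). EXLA2 (AT4G38400) had 23.3 CPM with malate, 20.5 CPM at low and 16.8 CPM at high phosphate in stop1, 18, 17.3 and 15 CPM in almt1 in the same order, and 36.1 CPM at low iron, 6.13 CPM at low and 20 CPM at high phosphate in wild type. EXLA2, which has been studied in the response to the fungus Botrytis, was lowest in wild type at low phosphate and fell there by 1.70 on the log2 scale (SE 0.18, adjusted p = 0.00668). EXLA3 (AT3G45960) stood at 0.664 CPM (malate), 1.12 CPM (low phosphate) and 0.593 CPM (high phosphate) in stop1, at 1.4, 0.573 and 0.467 CPM in almt1 in that order, and at 0.492 CPM (low iron), 2.84 CPM (low phosphate) and 0.244 CPM (high phosphate) in wild type. At this low level EXLA3 rose in wild type by 3.52 (SE 0.84, adjusted p = 0.0356).

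Besides EXPB1 and EXLA2, the alpha-expansins EXPA11 and EXPA17 fell. EXPA11 (AT1G20190) measured 38.8, 51.3 and 64.8 CPM in stop1 with malate, at low and at high phosphate, 37.5, 59.6 and 65.9 CPM in almt1 likewise, and 34.6, 37.1 and 74.4 CPM in wild type at low iron, low and high phosphate. All 3 high-phosphate libraries were above all 6 low-phosphate libraries. EXPA11 fell in wild type by 1.00 on the log2 scale (SE 0.17, adjusted p = 0.0151). EXPA17 (AT4G01630) had 72.5 CPM with malate, 36.2 CPM at low and 32.7 CPM at high phosphate in stop1, 43.2, 33.1 and 21.2 CPM in almt1 in the same order, and 43.4 CPM at low iron, 15.5 CPM at low and 29.3 CPM at high phosphate in wild type. EXPA17, which is known from lateral root emergence, was lowest in wild type at low phosphate. It fell in wild type by 0.92 on the log2 scale (SE 0.25, adjusted p = 0.0448).

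EXPA8, EXPA10 and EXPA14 were more than 2-fold apart between the 2 wild-type libraries without passing the main fit. In that pair 15 members were 2-fold apart (11 higher and 4 lower) beyond counting error, against 19.5% of all genes with 20 counts. DESeq2 called EXPA10 as higher and EXPA14 as lower, and it did not call EXPA20. The fit without the malate and low-iron libraries called EXPA8 and EXPA10 as higher and EXPA14 as lower. EXPA8 (AT2G40610) stood at 4.09 CPM (malate), 5.38 CPM (low phosphate) and 5.81 CPM (high phosphate) in stop1, at 7.92, 4.34 and 4.73 CPM in almt1 in that order, and at 5.47 CPM (low iron), 9.22 CPM (low phosphate) and 3.49 CPM (high phosphate) in wild type. Its wild-type fold change was 1.40 (SE 0.50, adjusted p = 0.0999). EXPA10 (AT1G26770) measured 6.52, 6.53 and 6.49 CPM in stop1 with malate, at low and at high phosphate, 7.18, 3.89 and 2.74 CPM in almt1 likewise, and 3.83, 11.2 and 3.7 CPM in wild type at low iron, low and high phosphate. EXPA10, known from leaf growth, had a wild-type fold change of 1.60 (SE 0.48, adjusted p = 0.0657). EXPA14 (AT5G56320) had 53.7 CPM with malate, 29.6 CPM at low and 31.4 CPM at high phosphate in stop1, 55.7, 61.5 and 58.5 CPM in almt1 in the same order, and 49.7 CPM at low iron, 27.3 CPM at low and 62 CPM at high phosphate in wild type. EXPA14, a target of the lateral root regulator LBD18, had a wild-type fold change of −1.18 (SE 0.37, adjusted p = 0.0759), and stop1 at low and at high phosphate lay close to wild type at low phosphate.

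**Figure D3:**
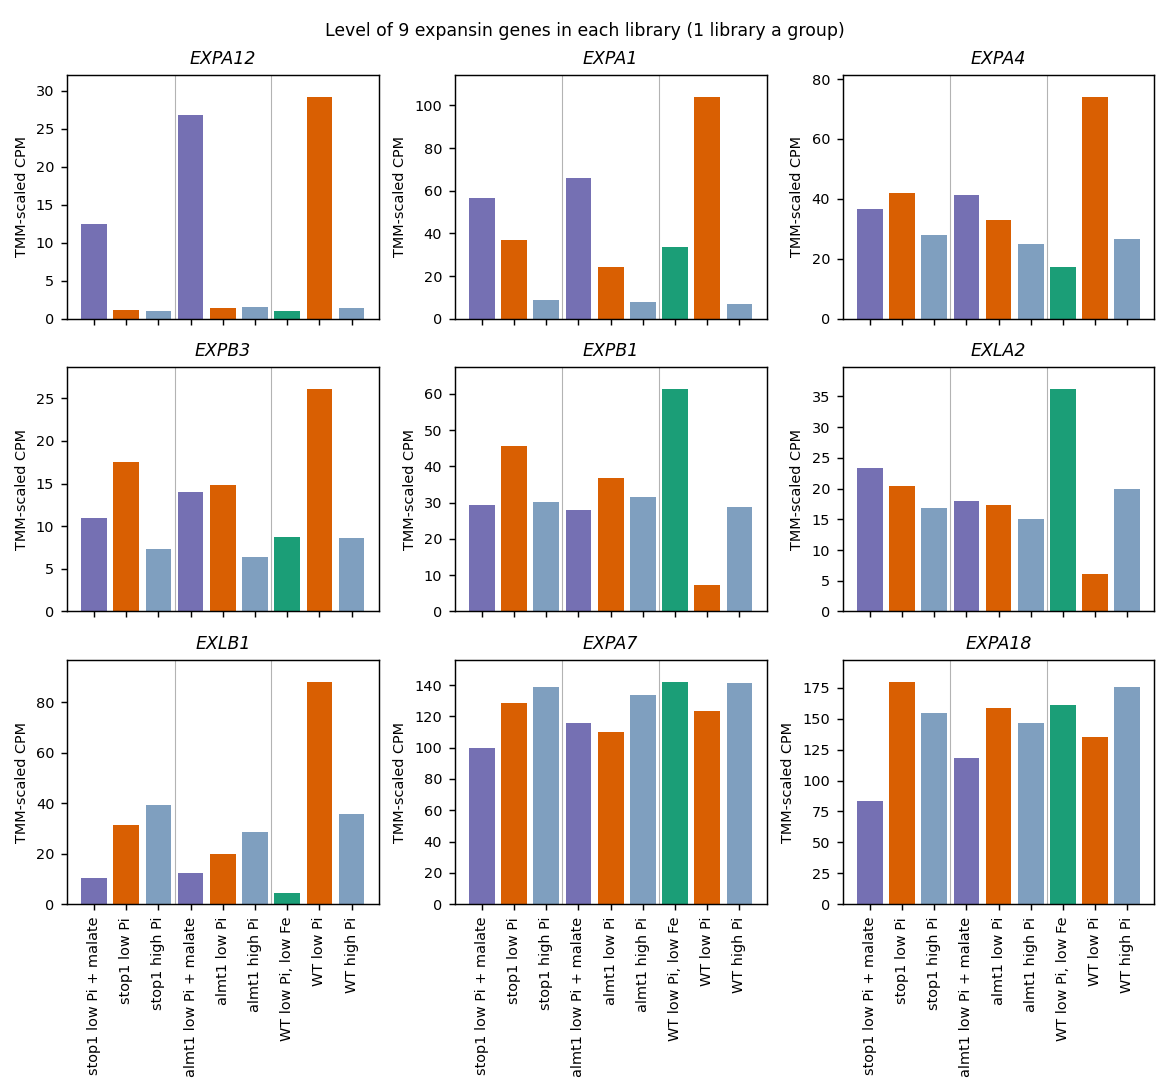
TMM-scaled CPM of 9 expansin genes in each library (bars, 1 library a group, so no error bars), with vertical lines between the 3 lines of plants. EXPA12 is above 12 CPM in 3 of the 9 libraries, EXPB1 and EXLA2 are lowest in wild type at low phosphate, and EXPA7 and EXPA18 keep a high level in all 9.

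Other genes that act on the wall were listed beside the expansins. Of the 11 plasma membrane proton pumps 9 were tested, and 1 rose in wild type at low phosphate, AHA7 at 1.29 (SE 0.23, adjusted p = 0.0176), while 0 fell. Of 17 other wall enzymes, 2 rose and 4 fell. The xyloglucan endotransglucosylases XTH17 at −3.48 (SE 0.38) and XTH21 at −3.38 (SE 0.30) and the pectin methylesterase PME2 at −2.49 (SE 0.38) fell, and XTH20 rose by 2.65 (SE 0.47). Of the listed cell type genes, 4 of 8 of dividing cells, 2 of 14 of endodermis and xylem and 2 of 4 tested of the shoot fell. Wild-type calls were fewer, over the members as over all genes, without stop1 at high phosphate and without almt1 at high phosphate. The members that still passed both times were EXPA1, EXPA3, EXPA4, EXPA12, EXPB3, EXPB1 and EXLA2.

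In the mutants, 2 of 25 tested members rose at low against high phosphate and 0 fell, against 5.41% of all genes (2.3% higher and 3.11% lower). The median was 0.169 over the members and 0.00901 over all genes. EXPA1 rose by 1.85 (SE 0.21, adjusted p = 0.0127) and EXPB3 by 1.24 (SE 0.19, adjusted p = 0.0228), each in 2 of 2 mutants. In single pairs 3 members were 2-fold apart in stop1 (EXPA1, EXPA3 and EXPB3), against 7.07% of all genes, and 2 in almt1 (EXPA1 and EXPB3), against 6.75%. Neither EXPA1 nor EXPB3 passed without stop1 at low phosphate, stop1 at high phosphate or almt1 at high phosphate. Without almt1 at low phosphate EXPA1 alone passed. In each of these fits calls over all genes fell too. Without 1 of the malate libraries, whichever it was, EXPA1 and EXPB3 passed, and calls rose over the members and over all genes alike. AHA7 rose in the mutants too, by 1.08 (SE 0.16, adjusted p = 0.0213), and so did the root hair regulator RHD6, by 0.80 (SE 0.11, adjusted p = 0.0161).

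Over the 6 libraries of 3 genotypes with genotype as a block, 1 of 22 tested members rose at low phosphate and 0 fell, against 3.71% of all genes (1.81% higher and 1.9% lower). The median was 0.153 over the members and 0.00306 over all genes. The one called was EXPB3, at 1.34 (SE 0.14, adjusted p = 0.0238), higher in 3 of 3 genotypes. EXPA1, also higher in 3 of 3, had a fold change of 2.50 (SE 0.49, adjusted p = 0.0714). DESeq2 called EXPA1 and EXPA4 besides EXPB3. Without the stop1 libraries 0 members and 1 of all genes passed. Without the wild-type libraries 5 members and 4599 of all genes passed, against 754 of all genes in the main fit.

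The difference between the low-phosphate responses was tested as wild type minus mutants, and it passed for 3 of 25 members, against 1.25% of all genes (0.688% higher and 0.561% lower). It was 4.37 (SE 0.44, adjusted p = 0.021) for EXPA12, −2.38 (SE 0.24, adjusted p = 0.021) for EXPB1 and −1.95 (SE 0.22, adjusted p = 0.0226) for EXLA2. The mutant fold changes behind these differences were 0.01 (SE 0.28) for EXPA12, 0.41 (SE 0.13) for EXPB1 and 0.25 (SE 0.12) for EXLA2, none of which passed, and the wild-type ones are given above. EXPA1 at 2.08 (SE 0.37, adjusted p = 0.063), EXPA17 at −1.32 (SE 0.30, adjusted p = 0.0915) and EXLB1 at 1.73 (SE 0.39, adjusted p = 0.0959) did not pass. The median difference was 0.367 over the members and 0.0668 over all genes. Without any 1 of the 4 mutant libraries at low or high phosphate, EXPA12, EXPB1 and EXLA2 did not pass, and calls over all genes were lost as well. Without 1 of the malate libraries, whichever it was, those members passed, and calls rose over the members and over all genes alike. Among the genes beside them, XTH17 at −3.49 (SE 0.44, adjusted p = 0.0395) and XTH21 at −3.07 (SE 0.34, adjusted p = 0.0236) differed downward, and the root hair genes LRX1 at 2.38 (SE 0.35) and LRX2 at 1.78 (SE 0.28) upward.

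Set directly against wild type at low phosphate, the mutants had 2 members higher and 7 lower of 25, against 6.6% of all genes (2.12% higher and 4.48% lower). The median was −0.0866 over the members and −0.0324 over all genes. EXPA12 fell by 4.48 on the log2 scale (SE 0.48, adjusted p = 0.00837). The others lower in the mutants were EXPA3 at −2.19 (SE 0.33), EXLB1 at −1.79 (SE 0.30), EXPA1 at −1.77 (SE 0.24), EXPA6 at −1.64 (SE 0.28), EXPA20 at −1.24 (SE 0.24) and EXPA4 at −0.98 (SE 0.18). EXPB1 rose by 2.48 (SE 0.19, adjusted p = 0.00275) and EXLA2 by 1.62 (SE 0.23, adjusted p = 0.0141). All 9 had the same direction in stop1 and in almt1. As single pairs, 10 members in stop1 and 14 in almt1 were 2-fold apart from wild type, against 12.6% of all genes in each. The wall enzymes XTH17, at 3.49 (SE 0.34), XTH21, at 2.83 (SE 0.34), and PME2, at 2.54 (SE 0.40), were also higher in the mutants, while 0 of 9 proton pumps and 0 of 13 root hair genes passed. Without stop1 at low phosphate EXPB1, EXPA1 and EXLB1 passed, and without almt1 at low phosphate EXPB1 alone did. Calls over all genes fell in both of these fits too.

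At high phosphate 0 of 25 members and 0% of all genes passed between the mutants and wild type by edgeR. At an unadjusted p under 0.05 there were 0 members and 893 genes, and DESeq2 called 0 members. The median was −0.0778 over the members and 0.0146 over all genes. No member was 2-fold apart beyond counting error in stop1 or in almt1, against 2.91% and 1.78% of all genes with 20 counts. EXLA3 was past 2-fold in stop1, with a log2 ratio of 1.28 (−0.10 to 2.82), but not beyond counting error. EXPA14 in stop1 lay just inside the limit, with 31.4 CPM against 62.0 CPM in wild type, a log2 ratio of −0.98 with a counting interval of −1.10 to −0.86 (95%, exact conditional binomial). The almt1 ratio of EXPA14 was −0.08 (−0.18 to 0.01).

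At low iron against iron in wild type at low phosphate, 4 of 25 members rose and 9 fell, against 30.6% of all genes (12.5% higher and 18.1% lower). The median was −0.101 over the members and −0.00593 over all genes. EXPB1 rose by 3.05 (SE 0.20, adjusted p = 0.0013), EXLA2 by 2.56 (SE 0.19, adjusted p = 0.0014) and EXPA17 by 1.49 (SE 0.25, adjusted p = 0.00946). EXPA13 (AT3G03220) stood at 22.3 CPM (malate), 18.1 CPM (low phosphate) and 14.2 CPM (high phosphate) in stop1, at 21, 16.1 and 13.2 CPM in almt1 in that order, and at 19.7 CPM (low iron), 12.8 CPM (low phosphate) and 15.6 CPM (high phosphate) in wild type. EXPA13 rose by 0.62 (SE 0.17, adjusted p = 0.0357), and its level in wild type at low phosphate was the lowest of the 9. EXPA12 fell by 4.77 on the log2 scale (SE 0.35, adjusted p = 0.00141), and EXLB1 fell by 4.26 on the log2 scale (SE 0.37, adjusted p = 0.00277). EXPA3, EXLA3, EXPA4, EXPA6, EXPA20, EXPA1 and EXPB3 fell too, with fold changes between −3.00 and −1.58. Between the same 2 libraries 13 members were 2-fold apart beyond counting error, against 23.4% of all genes. This comparison and that of low against high phosphate share the low-phosphate library, with opposite sign. Set against wild type at high phosphate, low iron left EXPA12 near its level there, with 1.07 CPM against 1.39 CPM, and EXPA1 above it, with 33.9 CPM against 6.80 CPM.

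In wild type EXLB1 was lower and EXPB1 higher at low iron than at high phosphate. EXLB1 had 4.59 CPM in low-iron wild type against 35.6 CPM at high phosphate, and EXPB1 had 61.2 CPM against 28.9 CPM. These 2 libraries were not compared by a test. At low iron against iron, 7 of 13 root hair genes rose and 0 fell, 7 of 17 wall enzymes rose and 2 fell, and 2 of 9 pumps rose and 2 fell. The wall enzyme XTH17 rose by 3.46 (SE 0.38), XTH22 fell by 2.56 on the log2 scale (SE 0.32), and the pump AHA4 fell by 2.04 on that scale (SE 0.37). Of the cell type genes, 2 of 14 of endodermis and xylem rose and 0 fell. Among these was CASP5, which builds the Casparian strip of the endodermis and rose by 3.77 (SE 0.24). Of 8 genes of dividing cells 2 rose and 1 fell, and of 4 of the root cap 1 rose and 0 fell.

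With malate, the mutants at low phosphate had 6 members higher and 4 lower of 25 (40%). That share was close to the 36.6% of all genes (17.2% higher and 19.4% lower). The higher members include EXPA2, which passed the filter only through almt1 with malate, where it is high, so its call is no separate evidence. The median was 0.334 over the members and −0.0246 over all genes. EXPA12 rose by 3.85 (SE 0.24, adjusted p = 0.00375), in 2 of 2 mutants. The single-pair ratios of EXPA12 were 3.39 in stop1 (counting interval 2.89 to 3.94) and 4.24 in almt1 (3.82 to 4.69). EXPA1 rose by 1.04 (SE 0.20, adjusted p = 0.0151), EXPA20 by 0.77 (SE 0.20, adjusted p = 0.0315) and EXPA17 by 0.69 (SE 0.17, adjusted p = 0.0244). EXPA9 (AT5G02260) measured 228, 150.4 and 123 CPM in stop1 with malate, at low and at high phosphate, 205, 148 and 137 CPM in almt1 likewise, and 167, 152 and 133 CPM in wild type at low iron, low and high phosphate. EXPA9 rose by 0.54 (SE 0.12, adjusted p = 0.0207), and both malate libraries were above the other 7. Besides EXPA18, EXLB1 fell by 1.12 on the log2 scale (SE 0.23, adjusted p = 0.0191). EXPA11 fell by 0.54 on the log2 scale (SE 0.12, adjusted p = 0.0175), and EXPB1 fell by 0.52 on the log2 scale (SE 0.13, adjusted p = 0.0247).

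Of the 10 members that passed with malate, 9 had the same direction in both mutants, and the exception was EXPA2. EXPA2 (AT5G05290), known from seed germination, had 0 counts with malate, at low and at high phosphate in stop1, 31, 1 and 3 counts in almt1 likewise, and 0, 1 and 0 counts in wild type at low iron, low and high phosphate. Its call (adjusted p = 0.0392) therefore came from 1 library, and in almt1 the log2 ratio was 4.77, with 2.18 as the lower end of its counting interval. EXPA5 (AT3G29030), known from brassinosteroid responses, had 22, 1 and 2 counts in stop1 with malate, at low and at high phosphate, 4, 2 and 2 counts in almt1 likewise, and 3, 0 and 0 counts in wild type at low iron, low and high phosphate. It too was high in 1 library, with a ratio of 4.01 in stop1 (interval 1.38 to 9.38), and it did not pass the fit. Under 2-fold pairs, 5 members in stop1 and 4 in almt1 were apart with malate, against 19.4% and 11.2% of all genes.

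Beside these members, 3 of 9 proton pumps rose with malate and 2 fell, among them AHA10 at 1.27 (SE 0.32) and AHA4 at −1.02 (SE 0.25). Of 17 wall enzymes 2 rose and 7 fell, with XTH21 at −2.16 (SE 0.19), XTH17 at −1.75 (SE 0.25) and XTH22 at 1.29 (SE 0.22). Of the cell type genes, 3 root hair genes rose and 1 fell, 3 of 14 of endodermis and xylem fell and 2 of 4 of the root cap rose, and their part in the expansin results was not tested. Without stop1 at low phosphate or almt1 at low phosphate EXPA12 alone passed. Without stop1 at high phosphate or almt1 at high phosphate EXPA12, EXPA1 and EXLB1 passed. In each of these fits calls over all genes were fewer than in the main fit too.

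**Figure D4:**
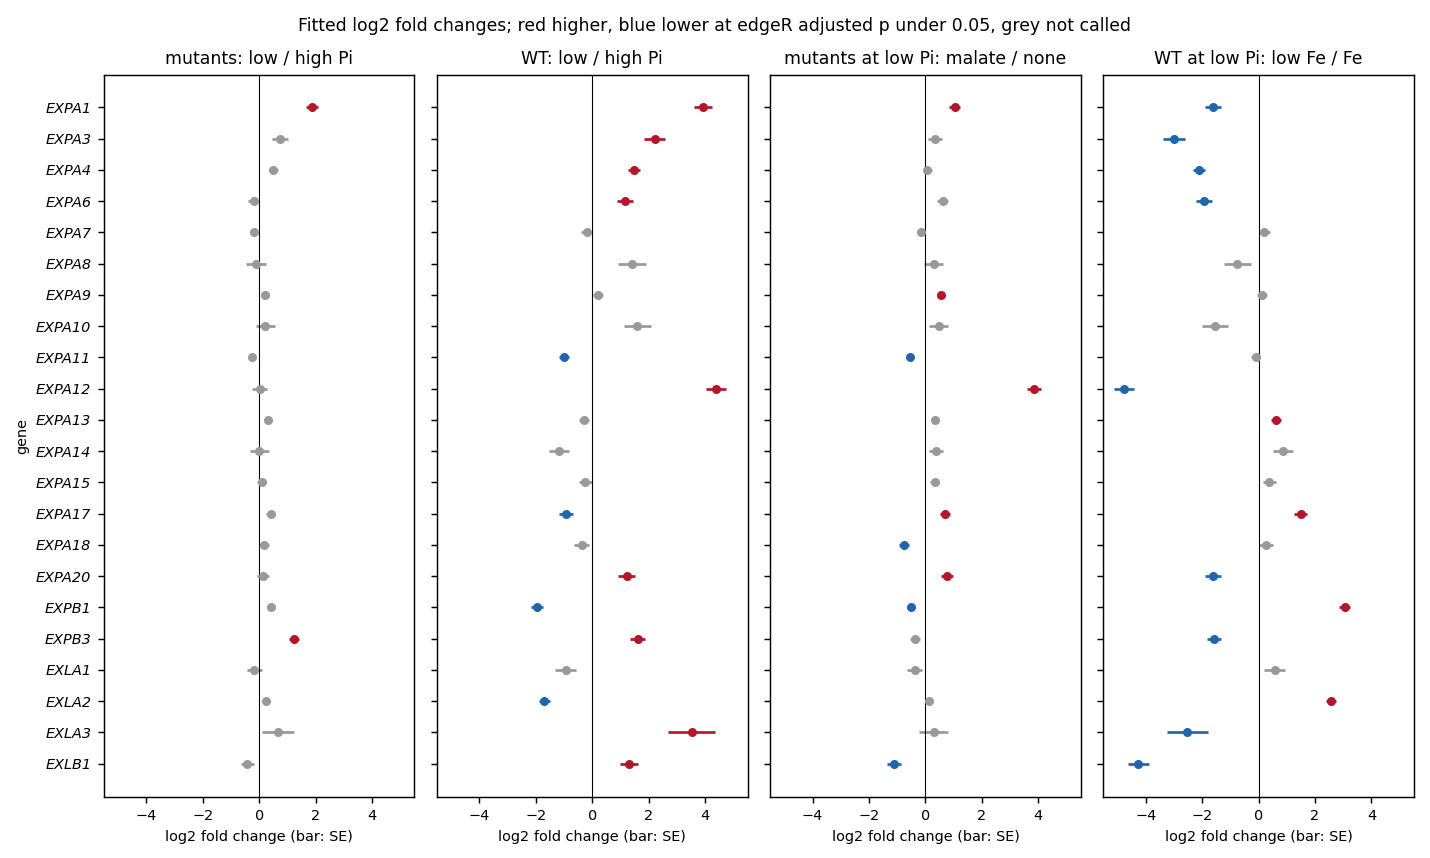
Fitted log2 fold changes (points) with SE (bars) of the 22 members with 100 or more counts in 4 comparisons, red for higher, blue for lower and grey for not passed at an edgeR adjusted p of 0.05. EXPA12 lies above 3 with malate in the mutants and at low phosphate in wild type, near 0 at low phosphate in the mutants, and below −4 at low iron in wild type.

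EXPA15 (AT2G03090), which passed in none of the 8 main fits, ranged from 20.8 CPM in stop1 at high phosphate to 37.2 CPM in low-iron wild type. EXPA16 (AT3G55500) had between 0.349 CPM in stop1 at low phosphate and 0 CPM in wild type at low phosphate, near the level of 3 counts. The order of levels per length changed between the wild-type libraries, where EXPA1 ranked 5 of the family at low phosphate and 15 at high phosphate, EXLB1 4 and 7, and EXPA14 11 and 6.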

How the data were processed

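RNA of root tips was sequenced in 9 libraries, 1 a group. The files as deposited hold unnormalized counts for each locus. Per the labels, libraries were TruSeq without strand from TRIzol RNA. TopHat2, HTSeq and the TAIR10 genome are named in the submitters' processing notes, and their versions are not given in the sources used here. Reads aligned at several places and reads over 2 genes are not in the counts, per 5 summary lines in each deposited file, which were kept out of library sizes. Loci were matched to TAIR10.1 (32835 of 33602 and all 30 expansins) for names, overlaps, exon length and upstream bases; the count files hold no coordinates. For stop1 with malate the sample title (high phosphate) contradicts the characteristics (low phosphate plus malate); the characteristics set the group.

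Counts were analysed with edgeR 4.0.16 (glmQLFit, robust, and glmQLFTest; TMM; genes kept by filterByExpr at 10 counts per library and 15 in total). R was 4.3.3 and limma 3.58.1, and DESeq2 1.42.0 served as an alternative. Tests ran over all genes, 20340 in the fit with genotype as a block (6 libraries) and 21229 in the others (9 libraries). The SE is the absolute log2 fold change over the square root of the F statistic. The mutant-class fits within genotypes held a stop1 against almt1 term (2 residual degrees of freedom, as in the block fit), and those against wild type held none (3 degrees). Pairs of libraries were called 2-fold apart where the 95% exact conditional binomial interval also excluded equality, over the 21881 genes with 20 counts or more. Intervals and floors cover counting error only. No 2 libraries were near-identical (lowest chi-square per degree of freedom 25.3). Values in every library were printed for each member with 20 counts that passed a fit or a pair, and of 7 gene lists (72 genes) up to 4 genes per list and fit were named. The members and lists were chosen with earlier results of these data known. Alternatives were other scaling, no filter, DESeq2, leaving out each mutant library or the 2 libraries of a genotype, other model terms and the 6 libraries without malate or low iron.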

Additional observations from a re-analysis of the deposited data

Results flagged for a closer look

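The low-phosphate response differed between wild type and the mutants for 3 members, by the test of the difference itself (edgeR, wild type minus mutants). EXPA12 differed by 4.37 on the log2 scale: its response was 0.01 in the mutants and 4.39 in wild type. EXPB1 differed by −2.38, with a response of 0.41 in the mutants and −1.97 in wild type. EXLA2 differed by −1.95, with a response of 0.25 in the mutants and −1.70 in wild type. Each wild-type response rests on 1 library at low phosphate, the one with 44.9% of reads aligned at several places, and the part of that library in the difference was not tested.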

How the results depend on the processing

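The number of members called changed with the libraries in the fit; single libraries left out were the 6 of the mutants, never those of wild type, each of which is alone in its term of the model. Low against high phosphate over 3 genotypes called 1 member, 3 by DESeq2 and 0 to 5 when the 2 libraries of a genotype were left out. In the mutants it called 2, 6 from a fit without the malate and low-iron libraries, and 0 to 7 when each mutant library was left out. In wild type it called 13, 14 by DESeq2, 18 from a fit without the malate and low-iron libraries, and 7 to 17 when each mutant library was left out. The difference of the responses called 3, 6 with scaling by total gene counts, 6 by DESeq2, 1 without the stop1 against almt1 term, 15 from the fit without the malate and low-iron libraries, and 0 to 17 when each mutant library was left out. The malate comparison called 10 and 1 to 15, the low-iron comparison 13 and 11 to 18, mutants against wild type at low phosphate 9 and 1 to 9, and at high phosphate 0 and 0 to 0 when each mutant library was left out. Over the 9-library fits that called members, leaving out 1 mutant library gave the highest counts without a malate library. The lowest ones came without a mutant library at low or high phosphate, and the cause was not tested. Calls over all genes were highest and lowest without the same kinds of library, so these ranges are not particular to the members. The fit without the malate and low-iron libraries also called more of all genes than the main fit each time. DESeq2 called more of all genes over 3 genotypes and for the difference, and fewer in wild type. All 20 counts of 2-fold pairs under other scalings stayed within 1.5 times. Of 706 alternative values of 117 single-gene results, 595 counted as the same. Of the rest, 107 from fits no longer passed, 4 from pairs left their counting interval and 0 reversed. A fit value counted as the same if it kept direction and side of the threshold. A pair ratio did so if it kept direction and stayed in its counting interval. Another scaling shifts every ratio of a pair equally, so the pair values are a weak check. Under scaling by total counts, log2 ratios shifted by 0.18 in the stop1 malate pair and 0.12 in the almt1 malate pair, and the malate comparison called 13 members, with EXPA5, EXPA6, EXPA13 and EXPA15 added and EXPB1 lost. Members under about 3 counts a library could not be compared at this depth. No paired analysis of replicates was possible because each group holds 1 library. The pairing by genotype is held by the fit over 3 genotypes as its block. The other fits of the mutants hold it in part as a stop1 against almt1 term.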

Other observations

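The phosphate-starvation motif P1BS, spelled GNATATNC and searched on both strands of the same upstream windows, was found in 1 of 29 protein-coding expansins, EXPA8, and in 5.46% of 27443 windows. No match in these windows says nothing about regulation from outside them.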
